A study of Mus musculus with 27 samples.

Results

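Genes of the extracellular matrix and of fibrosis were examined in the livers of 27 mice on 4 diets. The set was a list of 40 genes chosen by name: collagens, laminins, other matrix glycoproteins and proteoglycans, crosslinking enzymes, matricellular proteins, matrix proteases with their inhibitors, and genes of hepatic stellate cells. Of these 40 genes, 39 had a probe set that named them alone, out of 18820 genes measured in the same way, and the probe set with the highest mean stood for each gene. Fbn1, the gene of fibrillin-1, was not analysed here. Apart from this mean, which decided between 2 probe sets for Col5a1 and Loxl2, no measured value entered the rule. The genes were, however, chosen with earlier results of these data known.

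The mice were male C57BL/6J animals that entered their diets at 9 weeks of age and were killed at 12 months of age. INT-fed mice (n = 7) alternated weekly between AIN-93W-MF ad libitum and a week of 40% energy restriction, and were taken in an ad libitum week. The 6 CR-fed mice received AIN-93W-CR at a 30% restriction, the 7 MF-fed mice AIN-93W-MF with 25% of energy from fat, and the 7 C-fed mice AIN-93W, both of these ad libitum. All 27 had been fasted for 4 h, gavaged with the solvent 0.5% carboxymethyl cellulose and fasted for another 6 h, and 1 Affymetrix Mouse Gene 1.1 ST array was hybridized per liver.

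In a healthy liver, thin sheets of basement membrane and a sparse fibrillar matrix lie between hepatocytes, sinusoids and portal tracts. When the liver is injured, hepatic stellate cells, which otherwise store vitamin A, can turn into contractile myofibroblasts that secrete type I and type III collagen, under signals such as transforming growth factor beta and platelet-derived growth factor. Crosslinking enzymes stiffen the fibres, matrix metalloproteinases degrade them and tissue inhibitors of metalloproteinases (TIMPs) restrain that degradation, so that the amount of scar reflects both sides.

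The values were log2 intensities normalized together, with array medians between 5.21 and 5.27. Genes were tested where 5 or more of the 27 arrays exceeded an intensity of 20, which left 13603 genes and 38 of the 39 members. Lox, a lysyl oxidase that crosslinks collagen, did not exceed 20 on any array (2.94 to 3.65 log2 units) and was not tested. Of the tested members, 35 were above 20 on every array. Timp1 was at or under 20 on 19 arrays, Mmp9 on 12 and Col5a2 on 3, so that their levels were close to the background of the array. All 8 hepatocyte markers, albumin among them, passed this filter, and their summed level lay between 16.1 and 16.27 in every mouse. Arrays of replicates 1 to 4 (16 arrays) and of replicates 5 to 7 (11 arrays) differed in their interquartile range, 3.63 (SD 0.03) against 3.72 (SD 0.03) log2 units, and both sets held mice of every diet. In RNA from whole liver, fewer cells of a type and less RNA per cell cannot be told apart.

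Few of the matrix genes differed between diets. All members that did so were higher or lower in the CR-fed mice: the matricellular growth regulator Ctgf was higher, and the protease gene Mmp2 and the growth factor gene Hgf were lower, than in each of the other 3 diets. The basement membrane gene Lamc1 was higher in CR- than in C-fed mice, and CR-fed mice had less of the matricellular gene Thbs2 than MF-fed mice. By their GRCm38.p6 positions, Ctgf lies at chr10:24595442-24598683, Hgf at chr5:16553495-16619439, Mmp2 at chr8:92827290-92853421, Lamc1 at chr1:153218922-153332786 and Thbs2 at chr17:14665500-14694262. The collagens, the proteoglycans, the crosslinking enzymes, the TIMPs and the markers of contractile stellate cells did not pass the test in any comparison of diets.

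Calls were made with limma at an adjusted p under 0.05, with the Benjamini-Hochberg method over all 13603 genes. Between CR- and C-fed mice 4 of 38 members were called, 2 higher and 2 lower, which is 10.5% of them against 17.5% of all genes tested (8.46% higher and 9.05% lower). Between CR- and MF-fed mice 4 members were called, 1 higher and 3 lower (10.5% against 19.8% of all genes, 8.57% higher and 11.2% lower). Between INT- and CR-fed mice 3 members were called, 2 higher and 1 lower in INT (7.89% against 15.0% of all genes, 8.37% higher and 6.62% lower). The share of members called was below that of all genes in these 3 comparisons, which share the CR-fed mice. Between MF and C, INT and C, and INT and MF, no member was called by limma, and neither was any of the 13603 genes (0.0%). At an unadjusted p under 0.05, these comparisons held 0, 0 and 5 members and 464, 922 and 1479 of all genes (3.41%, 6.78% and 10.9%). In the same order, their smallest adjusted p among the members was 1.0, 0.737 (Mmp14) and 0.393 (Sparc). The comparisons of CR with C, CR with MF and INT with CR held 5, 10 and 8 members at an unadjusted p under 0.05, beside 29.5%, 31.7% and 27.8% of all genes. The plot of log2 fold changes shows that most members lay close to 0 with intervals that reached both sides.

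**Figure D1:**
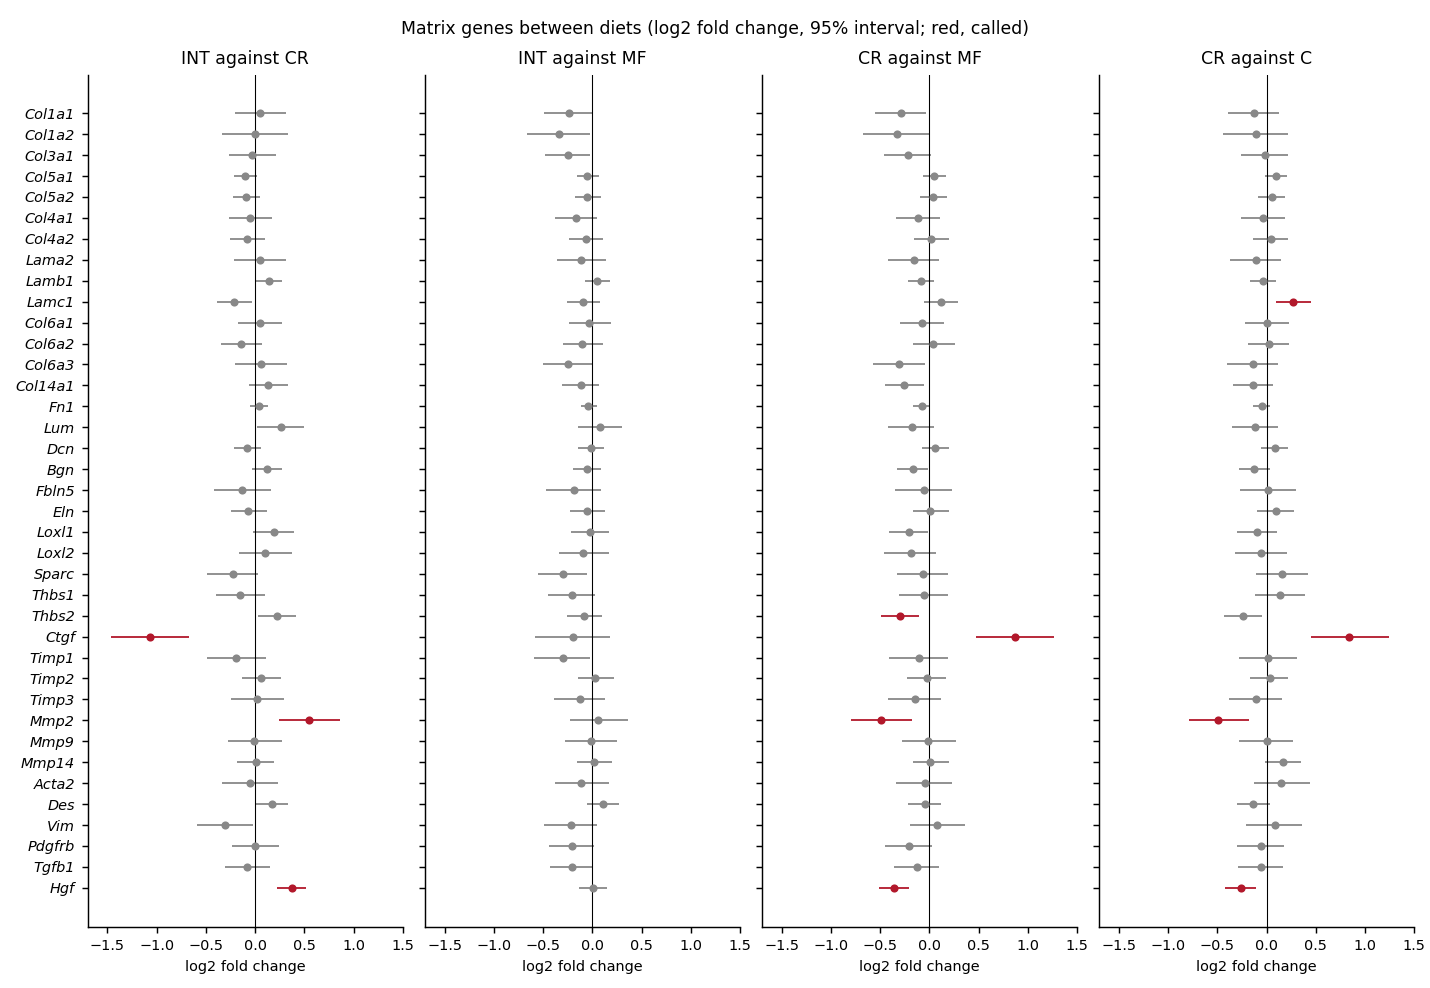
Log2 fold changes of the 38 tested members (points) with their 95% intervals (bars) between INT and CR, INT and MF, CR and MF, and CR and C, in log2 units on the x axis; genes run down the page by role and red marks an adjusted p under 0.05. Ctgf stands apart at -1.07 between INT and CR, 0.87 between CR and MF and 0.84 between CR and C, and no gene is red between INT and MF.

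Ctgf, now also named Ccn2, encodes connective tissue growth factor, a secreted protein that binds matrix and growth factors and is induced by transforming growth factor beta and by the mechanosensing factor YAP. Its lowest, median and highest log2 intensity was 7.32, 7.80 and 8.21 in INT-fed mice and 8.28, 9.02 and 9.19 in CR-fed mice. It was 7.43, 7.93 and 8.56 in MF-fed mice and 7.50, 7.98 and 8.38 in C-fed mice. All 6 CR-fed mice thus lay above all 7 INT-fed mice, while 2 of them (replicates 2 and 5, at 8.44 and 8.28) overlapped with the highest MF-fed mouse and 1 of them with the highest C-fed mouse. The log2 fold change was -1.07 (standard error 0.19, adjusted p = 0.000256) between INT and CR, a 2.1-fold lower level in INT. It was 0.87 (standard error 0.19, adjusted p = 0.00174) between CR and MF and 0.84 (standard error 0.19, adjusted p = 0.00252) between CR and C. These 3 calls did not depend on any single mouse. Within replicates 1 to 4 the differences were -1.14, 0.93 and 0.90, and within replicates 5 to 7 they were -0.93, 0.73 and 0.72, the last 3 of them from 2 CR-fed mice and not called.

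Hgf encodes hepatocyte growth factor, which stellate and endothelial cells of the liver secrete and which acts on hepatocytes through the receptor Met. Its lowest, median and highest value was 8.24, 8.39 and 8.59 in INT-fed mice, 7.89, 8.00 and 8.15 in CR-fed mice, 8.17, 8.32 and 8.66 in MF-fed mice and 8.16, 8.27 and 8.42 in C-fed mice. Hgf was thus below the range of every other diet in all 6 CR-fed mice, although by a narrow margin for the MF- and C-fed mice. Members whose groups did not overlap numbered 2 between INT and CR (Ctgf and Hgf; 6.43% of all genes did not overlap), 1 between CR and MF (7.02%) and 1 between CR and C (6.7%). Between MF and C, INT and C, and INT and MF there were 0, beside 0.0588%, 0.257% and 0.103% of all genes. The differences in Hgf were small, with log2 fold changes of 0.37 (standard error 0.07, adjusted p = 0.000773) between INT and CR, -0.36 (standard error 0.07, adjusted p = 0.000722) between CR and MF and -0.26 (standard error 0.07, adjusted p = 0.0123) between CR and C. No single mouse left out ended any of these calls, but within replicates 1 to 4 the difference between CR and C of -0.30 was not called (adjusted p = 0.0704). Within replicates 5 to 7 none of the 3 was called by limma, at 0.36 between INT and CR (adjusted p = 0.0813), -0.2 between CR and MF (adjusted p = 0.35) and -0.18 between CR and C (adjusted p = 0.357).

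Mmp2 encodes gelatinase A, a protease of mesenchymal cells that degrades basement membrane collagen and denatured fibrillar collagen. It read 5.92, 6.19 and 6.70 (lowest, median, highest) in INT-fed mice and 5.35, 5.61 and 6.14 in CR-fed mice. The MF-fed mice had 5.57, 6.21 and 6.52, and the C-fed mice 5.83, 6.09 and 6.64. The CR-fed mice overlapped with each other diet through replicate 5 at 6.14, and in MF also through MF replicate 1 at 5.57. The log2 fold change was 0.55 (standard error 0.15, adjusted p = 0.0116) between INT and CR, and this call held without any single mouse. It was not made within replicates 1 to 4 (0.59, adjusted p = 0.0795) or within replicates 5 to 7 (0.40, adjusted p = 0.267). Nor was it made by the study's Tukey comparison with Benjamini-Hochberg adjustment over all genes, a step its methods do not name. Between CR and MF the log2 fold change was -0.49 (standard error 0.15, adjusted p = 0.0207), and the call was lost without CR replicate 4 or MF replicate 3 (adjusted p up to 0.0624). Between CR and C it was also -0.49 (standard error 0.15, adjusted p = 0.0233), and the call was lost without C replicate 3, CR replicate 2 or CR replicate 4 (adjusted p up to 0.0699). Within replicates 1 to 4 these differences were -0.64 between CR and MF, which was called (adjusted p = 0.0375), and -0.57 between CR and C (adjusted p = 0.0776), and within replicates 5 to 7 they were -0.19 and -0.27 and not called.

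Lamc1 encodes the gamma 1 chain that most laminins of the basement membrane share. Its lowest, median and highest value was 6.56, 6.84 and 6.92 in INT-fed mice, 6.69, 7.01 and 7.28 in CR-fed mice, 6.67, 6.86 and 7.17 in MF-fed mice and 6.53, 6.76 and 6.92 in C-fed mice, and the diets overlapped. The log2 fold change of 0.27 (standard error 0.09, adjusted p = 0.0271) was called, but not without C replicate 2, C replicate 6, or CR replicate 4, 5 or 6 (adjusted p up to 0.0781). Thbs2 encodes thrombospondin 2, which modulates collagen fibril assembly and limits the growth of vessels. It had 5.52, 5.65 and 5.88 in INT-fed mice, 5.13, 5.54 and 5.66 in CR-fed mice, 5.64, 5.70 and 6.12 in MF-fed mice and 5.37, 5.66 and 5.90 in C-fed mice, so that CR and MF overlapped between 5.64 and 5.66. The log2 fold change between CR and MF was -0.30 (standard error 0.09, adjusted p = 0.0227), and the call was lost without CR replicate 2, CR replicate 6 or MF replicate 4 (adjusted p up to 0.0809). Neither call was made within replicates 1 to 4, with Lamc1 at 0.22 and Thbs2 at -0.33 (adjusted p = 0.195 and 0.0874), nor within replicates 5 to 7, with 0.40 and -0.25 (adjusted p = 0.177 and 0.387). Both genes had the same direction in the comparison with the remaining ad libitum diet, with Lamc1 at 0.12 between CR and MF (adjusted p = 0.386) and Thbs2 at -0.24 between CR and C (adjusted p = 0.0808).

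**Figure D2:**
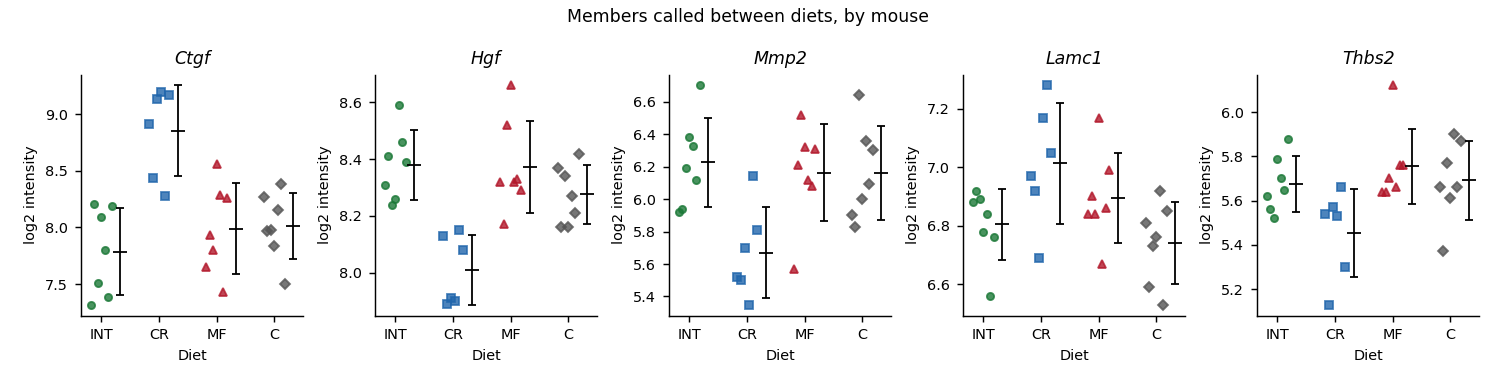
Log2 intensity (y axis) of the 5 members called between diets, by diet (x axis); each point is 1 mouse and the bar gives the mean with the SD (n = 7 INT, 6 CR, 7 MF and 7 C). The 6 CR-fed mice lie above all INT-fed mice for Ctgf (8.28 and more) and below every mouse of the other diets for Hgf (8.15 and less).

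The fibrillar collagens form the tensile fibres of scar. Col1a1 and Col1a2 encode the chains of type I collagen, Col3a1 that of type III collagen, and Col5a1 and Col5a2 chains of type V collagen, which nucleates the fibrils. None of these 5 genes was called in any comparison of diets. Col1a1 had a lowest, median and highest value of 5.75, 5.87 and 6.19 in INT-fed mice, 5.77, 5.84 and 6.08 in CR-fed mice, 5.68, 6.12 and 6.67 in MF-fed mice and 5.64, 5.95 and 6.45 in C-fed mice. The 2 highest livers of all 27 were MF replicates 4 and 3 (6.67 and 6.54), followed by C replicate 5 (6.45), while MF replicate 6 (5.68) was among the lowest. The log2 fold change of Col1a1 was -0.24 (95% interval -0.49 to 0.01) between INT and MF, -0.29 (-0.55 to -0.04; adjusted p = 0.101) between CR and MF, and 0.17 (-0.08 to 0.41) between MF and C. The difference between CR and MF depended on the mice used, since it was called without MF replicate 6 (-0.38, adjusted p = 0.0248) and within replicates 1 to 4 (-0.48, adjusted p = 0.0239).

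Col1a2 averaged 6.10 ± 0.26 in INT-fed mice, 6.11 ± 0.11 in CR-fed mice, 6.44 ± 0.47 in MF-fed mice and 6.22 ± 0.27 in C-fed mice (SD, n = 7, 6, 7 and 7). Col3a1 averaged 5.86 ± 0.16 in INT-fed mice, 5.89 ± 0.09 in CR-fed mice, 6.11 ± 0.26 in MF-fed mice and 5.91 ± 0.29 in C-fed mice. In both genes the MF-fed mice had the highest mean, and the diets overlapped. Between INT and MF, Col1a2 was at -0.34 (adjusted p = 0.449) and Col3a1 at -0.25 (adjusted p = 0.437), and their unadjusted p-values of 0.0407 and 0.0348 were among the 5 of members under 0.05, with Sparc, Timp1 and Col6a3. All 5 of these estimates were negative. These 5 of 38 members stand beside 10.9% of all genes under the same unadjusted p, and none was called. Col5a1 and Col5a2 stayed within -0.10 and 0.09 log2 units in all 6 comparisons.

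**Figure D3:**
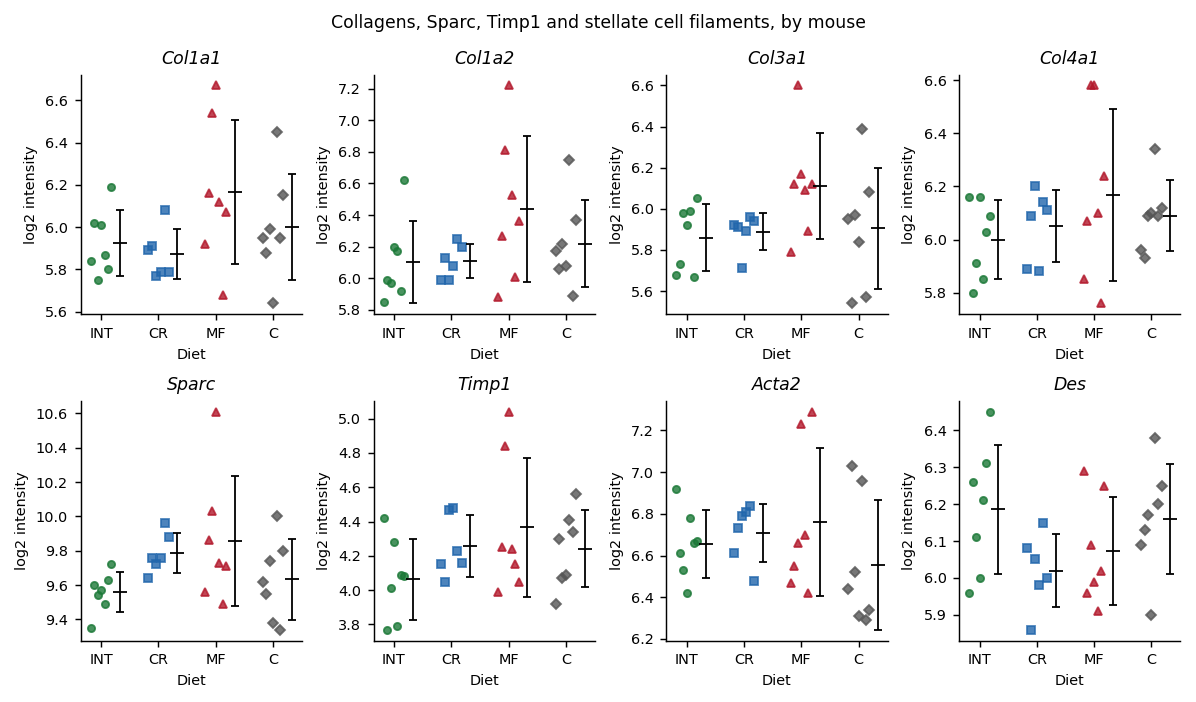
Log2 intensity (y axis) of Col1a1, Col1a2, Col3a1, Col4a1, Sparc, Timp1, Acta2 and Des by diet (x axis); each point is 1 mouse and the bar gives the mean with the SD (n = 7 INT, 6 CR, 7 MF and 7 C). In Col1a1, Col1a2, Sparc and Timp1 MF replicate 4 is the highest of all 27 mice (6.67, 7.22, 10.61 and 5.04), and the MF-fed mice spread more widely than the INT- and CR-fed mice.

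The members of the basement membrane, besides Lamc1, were Col4a1 and Col4a2, whose type IV collagen chains form its network, and the laminin genes Lama2 and Lamb1. None of these 4 was called, with log2 fold changes from -0.17 (Col4a1, INT against MF) to 0.14 (Lamb1, INT against CR, adjusted p = 0.147). Of the microfibrillar type VI collagen genes Col6a1, Col6a2 and Col6a3 and the fibril-associated Col14a1, the largest differences were between CR and MF, where Col6a3 was at -0.31 (adjusted p = 0.0874) and Col14a1 at -0.26 (adjusted p = 0.064). Without MF replicate 1 both of these passed the threshold, as did Bgn and Loxl1, so that 8 members in place of 4 were called between CR and MF. Without MF replicates 3 and 4 the count was 2 (Ctgf and Hgf).

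Fn1, the gene of fibronectin, an adhesive glycoprotein that hepatocytes also secrete into plasma, had a narrow range of 12.48 to 12.78 over all mice and differences between -0.08 and 0.04. The small leucine-rich proteoglycans Lum, Dcn and Bgn bind collagen fibrils and set their spacing. Lum was at 0.26 between INT and CR (adjusted p = 0.138), Bgn at -0.17 between CR and MF (adjusted p = 0.108), and Dcn stayed within -0.08 and 0.08. Fbln5 and Eln, which encode fibulin 5 and elastin of the elastic fibre, ranged from -0.19 to 0.09. The crosslinking enzymes Loxl1 and Loxl2 were at -0.21 and -0.19 between CR and MF (adjusted p = 0.144 and 0.327). Loxl2 was called between CR and MF within replicates 1 to 4 (-0.53, adjusted p = 0.00154), whereas within replicates 5 to 7 it was at 0.37 (adjusted p = 0.36), with 5.41 and 5.64 in the CR-fed mice and 5.40, 4.87 and 5.21 in the MF-fed mice. Among the matricellular proteins, Sparc, a collagen-binding glycoprotein, was at -0.30 between INT and MF, and Thbs1, an activator of latent transforming growth factor beta, at -0.21 (adjusted p = 0.393 and 0.523).

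Timp1, an inhibitor of metalloproteinases that rises in injured liver, had 3.77, 4.08 and 4.42 (lowest, median, highest) in INT-fed mice, 4.05, 4.20 and 4.48 in CR-fed mice, 3.99, 4.24 and 5.04 in MF-fed mice and 3.92, 4.30 and 4.56 in C-fed mice. MF replicates 3 and 4 (4.84 and 5.04) were the highest 2 mice. Its log2 fold change was -0.30 (95% interval -0.59 to -0.02, adjusted p = 0.446) between INT and MF and 0.12 (-0.16 to 0.41) between MF and C. Timp2, Timp3, Mmp9 and Mmp14 were not called either, with the largest difference at 0.17 (Mmp14, INT against C and CR against C, adjusted p = 0.737 and 0.223).

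Acta2 encodes smooth muscle actin, the filament of contractile myofibroblasts and of vessel walls. Its lowest, median and highest value was 6.42, 6.66 and 6.92 in INT-fed mice, 6.48, 6.76 and 6.84 in CR-fed mice, 6.42, 6.66 and 7.29 in MF-fed mice and 6.29, 6.44 and 7.03 in C-fed mice. In MF and in C a pair of mice stood above the others (MF replicates 7 and 4, C replicates 2 and 5), and the diets overlapped. Desmin (Des), a filament of stellate and muscle cells, averaged 6.19 ± 0.17 in INT-fed mice, 6.02 ± 0.10 in CR-fed mice, 6.07 ± 0.15 in MF-fed mice and 6.16 ± 0.15 in C-fed mice, and was at 0.17 between INT and CR (adjusted p = 0.184). Vim, a mesenchymal filament gene, was at -0.31 between INT and CR (adjusted p = 0.144). Pdgfrb, the receptor through which platelet-derived growth factor drives stellate cells, averaged 7.01 ± 0.23 in INT-fed mice, 7.01 ± 0.21 in CR-fed mice, 7.22 ± 0.22 in MF-fed mice and 7.07 ± 0.21 in C-fed mice. Tgfb1, the main fibrogenic cytokine of the liver, averaged 7.26 ± 0.18 in INT-fed mice, 7.34 ± 0.17 in CR-fed mice, 7.47 ± 0.25 in MF-fed mice and 7.40 ± 0.23 in C-fed mice. Pdgfrb and Tgfb1 were both at -0.21 between INT and MF (adjusted p = 0.500 and 0.479).

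Taken over the 38 members, most of the differences with MF were small and put MF above the other diet. No member was called there apart from those of the CR-fed mice, of which Ctgf went the other way (0.87 between CR and MF). Between MF and C, 34 of 38 estimates were above 0 (89.5%, against 54.6% of all genes), with a median of 0.07 (0.01 over all genes). Between INT and MF, 31 of 38 were below 0, with a median of -0.09, and 18.4% were above 0, against 49.0% of all genes. Between CR and MF, 28 of 38 were below 0, with a median of -0.08, and 26.3% were above 0, against 49.4% of all genes. Without MF replicates 3 and 4 none of these leanings remained. Between MF and C, 16 of 38 estimates were then above 0 (median -0.01), and between CR and MF 20 of 38 (median 0.01). Between INT and MF, 21 of 38 were below 0 (median 0.0). MF replicates 4 and 3 were the highest in Col1a1 and held the highest value of all mice in 20 and 7 members. Leaving them out was thus bound to lower the MF means, and it does not test the leaning. The members are not independent of each other, since many of them varied together between mice of 1 diet.

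In MF, and less so in C and INT, the matrix genes had a higher median SD between mice than all genes had, while in CR it was slightly lower. The median SD over the 38 members was 0.171 in INT-fed mice, 0.139 in CR-fed mice, 0.231 in MF-fed mice and 0.195 in C-fed mice, against 0.144, 0.147, 0.157 and 0.151 over all genes in the same order of diets. For 23 of 38 members the SD was widest in MF, which held for 31.7% of all genes. MF replicate 4 had the highest value of all 27 mice in 20 of 38 members, among them Col1a1, Col1a2, Sparc, Timp1, Vim and Pdgfrb, and was the highest of 27 in 9.7% of all genes. It lay above the mean of its diet in 36 members, by 0.33 log2 units on average, and MF replicate 3 in 33 members, by 0.17. In the other direction, MF replicates 1 and 6 were above their diet's mean in only 5 and 3 members. C replicate 5, CR replicate 5 and INT replicate 7 held the highest value of their own diet in 16, 17 and 16 members.

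To describe how the members varied together, each gene was fitted on Col1a1 with diet in the model, so that only differences between mice of 1 diet counted. Livers with more Col1a1 also had more of its partner chain Col1a2, of Sparc, of the proteoglycan gene Lum and of Vim. Of the 37 other members, 15 had a positive slope at an adjusted p under 0.05 and 0 a negative one, which is 40.5% against 6.09% of the 13602 genes fitted (4.12% positive and 1.98% negative). All 37 estimates were above 0, against 52.5% of all genes. Col1a2 gained 1.14 log2 units per log2 unit of Col1a1 (standard error 0.136, adjusted p = 3.28e-05), Sparc 0.865 (0.115, adjusted p = 0.000116), Lum 0.742 (0.115, adjusted p = 0.000637) and Vim 0.86 (0.143, adjusted p = 0.00104). Sparc averaged 9.56 ± 0.12 in INT-fed mice, 9.79 ± 0.12 in CR-fed mice, 9.86 ± 0.38 in MF-fed mice and 9.63 ± 0.23 in C-fed mice (SD, n = 7, 6, 7 and 7). Vim had 9.10, 9.25 and 9.84 (lowest, median, highest) in INT-fed mice, 9.51, 9.69 and 9.76 in CR-fed mice, 9.21, 9.51 and 10.23 in MF-fed mice and 9.35, 9.57 and 10.01 in C-fed mice. Lum had 6.35, 6.71 and 6.88 in INT-fed mice, 6.17, 6.34 and 6.67 in CR-fed mice, 6.31, 6.51 and 6.99 in MF-fed mice and 6.26, 6.42 and 6.90 in C-fed mice. The scatter of these genes against Col1a1 runs through all diets, with MF replicates 4 and 3 and C replicate 5 at its upper end.

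**Figure D4:**
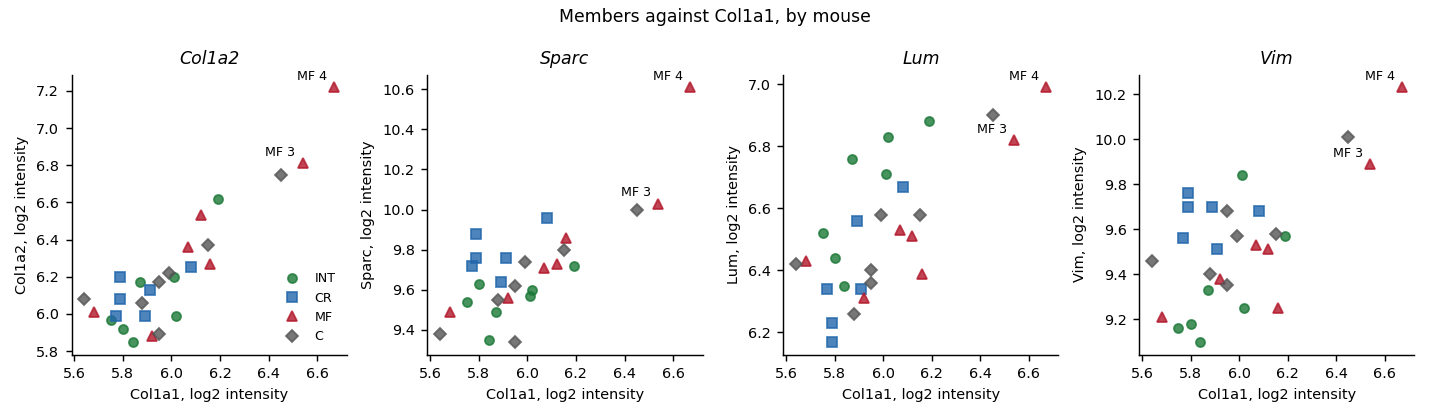
Log2 intensity of Col1a2, Sparc, Lum and Vim (y axes) against that of Col1a1 (x axes); each point is 1 mouse, with diets by colour and shape, and MF replicates 3 and 4 are named. MF replicate 4 has the highest value on both axes in each panel (Col1a1 6.67, Col1a2 7.22), and mice of all diets share the lower range.

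The other members with a positive slope were the collagens Col3a1 (0.624), Col4a1 (0.629), Col6a1 (0.569), Col6a3 (0.69) and Col14a1 (0.542), the laminin gene Lama2 (0.572), Loxl2 (0.63), Thbs1 (0.645), Timp1 (0.674), Mmp2 (0.662) and Pdgfrb (0.666). Fn1 and Col5a1, at 0.0173 and 0.0206, had the smallest estimates. The calls rested to a large part on MF replicates 3 and 4, the arrays farthest from the median of Col1a1. Without both of them 2 of 37 members kept the call, Col1a2 at 0.991 (adjusted p = 0.0432) and Sparc at 0.687 (adjusted p = 0.0464), and 6 of the 13602 genes were called (0.0441%). The slopes of Lum (0.721), Pdgfrb (0.677) and Col3a1 (0.673) were of like size without them, while that of Timp1 was 0.205 in place of 0.674. Without MF replicate 4 alone 6 members were called, the ones lost including Col4a1, Col6a1, Col6a3 and Pdgfrb, whose calls depended on that mouse only. Col1a2, Sparc, Lum, Vim and Col14a1 were called without any single mouse. Mmp2 lost its call without any 1 of 22 mice, Lama2 without any 1 of 12, Timp1 without any 1 of MF replicates 1, 3, 4 and 6 and C replicates 5 and 7, Loxl2 without MF replicate 3, 4 or 6 or C replicate 5, Thbs1 without MF replicate 4 or 6, and Col3a1 without C replicate 5. Within replicates 1 to 4 the slopes of Col1a2, Sparc, Lum and Vim were 1.35, 1.01, 0.873 and 1.08, and within replicates 5 to 7 they were 1.32, 0.724, 0.792 and 0.861. Of these, only Col1a2 within replicates 1 to 4 was called (adjusted p = 0.0427).

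The promoters of Col1a2, Vim and Col4a1 are given as examples of genes with called positive slopes on Col1a1 that held the CCAAT box described below. Timp1 held it too, whereas Col3a1 and Lama2, which also had called slopes and sequence at hand, did not. The promoter of Col4a2 is given because it shares its promoter region with Col4a1, although its own slope of 0.278 was not called (adjusted p = 0.203). RefSeq sequence of mouse assembly GRCm38.p6, from 250 bases before to 50 bases after a transcription start, was at hand for 23 of the 39 members. For Col4a1 that start lies inside the gene's listed span, which reaches chr8:11312889. The CCAAT box, a site of general promoter factors that also occurs in collagen gene promoters, was searched as CCAAT and, for the other strand, as ATTGG, and every match is in capitals. Col1a2 and Vim held 2 matches each, and Col4a1 and Col4a2, which lie head to head on chromosome 8 with windows that overlap by 78 bases, held 1 each.
Col1a2, chr6:4505368-4505667, plus strand: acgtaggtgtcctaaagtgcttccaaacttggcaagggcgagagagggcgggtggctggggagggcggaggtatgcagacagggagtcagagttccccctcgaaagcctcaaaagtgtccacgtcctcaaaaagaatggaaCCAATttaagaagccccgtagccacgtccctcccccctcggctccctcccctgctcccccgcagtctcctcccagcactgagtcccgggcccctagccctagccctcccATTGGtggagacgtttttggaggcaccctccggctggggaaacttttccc
Vim, chr2:13574061-13574360, plus strand: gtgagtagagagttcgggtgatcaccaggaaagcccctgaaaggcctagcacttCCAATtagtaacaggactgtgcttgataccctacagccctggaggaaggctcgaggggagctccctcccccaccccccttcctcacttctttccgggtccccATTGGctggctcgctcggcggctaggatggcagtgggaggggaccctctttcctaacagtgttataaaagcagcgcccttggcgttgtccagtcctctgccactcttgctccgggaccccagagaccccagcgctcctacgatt
Col4a1, chr8:11312777-11313076, minus strand: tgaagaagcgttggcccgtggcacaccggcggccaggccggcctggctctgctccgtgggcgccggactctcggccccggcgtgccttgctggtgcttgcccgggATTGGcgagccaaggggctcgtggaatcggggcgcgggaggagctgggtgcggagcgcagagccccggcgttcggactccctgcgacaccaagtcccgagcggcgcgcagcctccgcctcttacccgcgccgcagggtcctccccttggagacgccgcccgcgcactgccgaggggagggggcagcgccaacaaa
Col4a2, chr8:11312555-11312854, plus strand: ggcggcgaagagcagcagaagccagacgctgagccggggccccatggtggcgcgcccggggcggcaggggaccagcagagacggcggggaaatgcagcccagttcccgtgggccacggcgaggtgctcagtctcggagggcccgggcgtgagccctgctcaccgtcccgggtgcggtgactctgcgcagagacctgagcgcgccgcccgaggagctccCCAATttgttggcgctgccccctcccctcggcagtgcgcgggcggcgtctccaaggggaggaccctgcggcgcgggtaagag
Of the 23 members, 11 had at least 1 match (47.8%), against 41.1% of 27025 promoters of the same length. On either strand, the GC box GGGCGG was found in 15 members (65.2% against 38.2%), the TATA box TATAAA in 3 (13.0% against 15.7%), and GGAATG, the core of elements bound by TEAD factors, in 4 (17.4% against 16.6%). These matches describe the letters of the windows and say nothing on binding in these livers.

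Cidec encodes a protein on the surface of lipid droplets that promotes their growth, and its level varied widely between mice of 1 diet. Its lowest, median and highest value was 6.20, 7.48 and 9.26 in INT-fed mice, 5.26, 5.47 and 6.06 in CR-fed mice, 6.19, 9.80 and 10.78 in MF-fed mice and 7.35, 8.75 and 10.26 in C-fed mice. The CR-fed mice lay below all other mice, and MF replicates 4 and 3 were again the highest. Matrix genes were fitted on Cidec in the same way, with diet in the model. Livers with more Cidec had more RNA of the type I and type III collagen genes and of the type IV collagen gene Col4a1, while Col4a2 was at 0.054 (adjusted p = 0.169). In all, 9 of 38 members had a positive slope (23.7% against 11.6% of all genes, with 6.0% positive and 5.59% negative), and 0 a negative one. These were Col4a1 (0.124 log2 units per log2 unit of Cidec, standard error 0.0238, adjusted p = 0.00111), Thbs1 (0.133, adjusted p = 0.00239), Col1a1 (0.128, adjusted p = 0.00596), Col1a2 (0.165, adjusted p = 0.00601), Col3a1, Timp1, Timp3, Eln and Vim. Col4a1 had 5.80, 6.03 and 6.16 (lowest, median, highest) in INT-fed mice, 5.88, 6.10 and 6.20 in CR-fed mice, 5.76, 6.10 and 6.58 in MF-fed mice and 5.93, 6.09 and 6.34 in C-fed mice. Thbs1 had 4.75, 4.93 and 5.21 in INT-fed mice, 5.01, 5.11 and 5.23 in CR-fed mice, 4.68, 5.03 and 5.67 in MF-fed mice and 4.61, 5.07 and 5.19 in C-fed mice. In both genes the diets overlapped and the highest mouse was MF-fed. Without MF replicates 3 and 4 only Col4a1 was called (0.0878, adjusted p = 0.0361), beside 3.85% of all genes. Without MF replicate 6, a mouse low in both Cidec and collagen RNA, 3 members were called, and without MF replicate 4, 5 members.

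The calls of Col4a1, Thbs1 and Col1a2 did not depend on any single mouse. Col1a1 lost its call without MF replicate 6, Eln without MF replicate 4 or 6, Timp3 without these or C replicate 5, and Vim without these or MF replicate 3. Col3a1 lost it without MF replicate 1, 3 or 6 or C replicate 5 or 6, and Timp1 without MF replicate 1, 3, 4 or 6 or INT replicate 1. Within replicates 1 to 4 the slopes of Col4a1, Thbs1, Col1a1 and Col1a2 were 0.154, 0.147, 0.107 and 0.18, and within replicates 5 to 7 they were 0.0961, 0.128, 0.136 and 0.194, of which Col4a1 within replicates 1 to 4 was called.

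**Figure D5:**
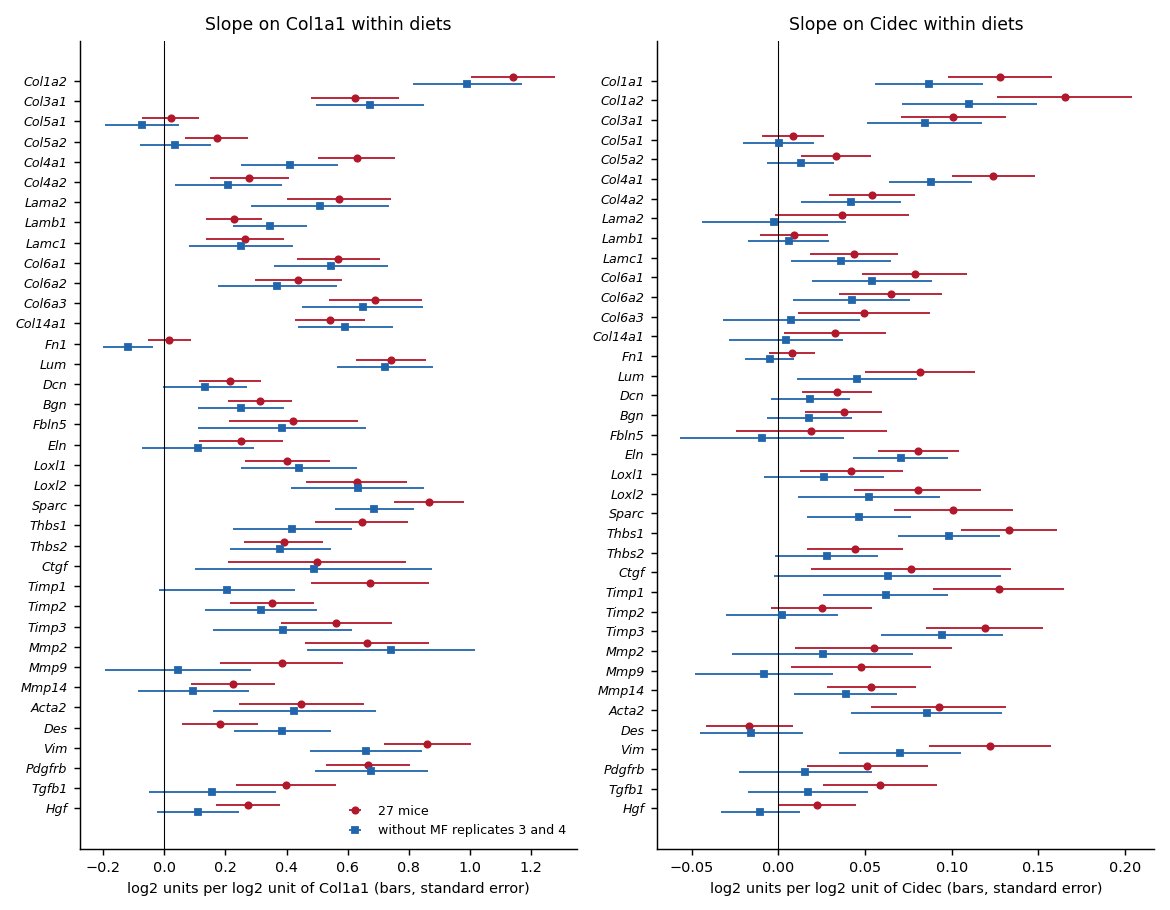
Slope of each member (down the page) on Col1a1 (left) and on Cidec (right) with diet in the model, in log2 units per log2 unit (x axes); points are estimates and bars standard errors, red with all 27 mice and blue without MF replicates 3 and 4. All 37 red estimates on Col1a1 lie above 0, and without the 2 mice the estimate of Timp1 on Col1a1 is 0.205 in place of 0.674.

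Other genes of the same pathways were taken from lists of general knowledge. Among genes of transforming growth factor beta signalling (22 tested), 2 were higher and 2 lower in CR- than in C-fed mice (18.2% against 17.5% of all genes). Smad7, which inhibits the receptor of this cytokine, was higher at 0.59 (standard error 0.11, adjusted p = 0.000509). Its lowest, median and highest value was 7.20, 7.44 and 7.78 in CR-fed mice and 6.48, 6.94 and 7.17 in C-fed mice, without overlap. Smurf2, a ubiquitin ligase that acts with Smad7, was lower at -0.25 (adjusted p = 0.00272). Bambi, a decoy receptor (0.31), was called too but not without CR replicate 6, and Tgif1 (-0.29) not without C replicate 1, 5, 6 or 7 or CR replicate 2, 4 or 5. Between INT and CR, Smad7 was lower in INT at -0.43 (adjusted p = 0.01) and Smurf2 higher at 0.27 (adjusted p = 0.00154).

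Other matrix glycoproteins (32 tested) held 2 genes higher and 3 lower in CR- than in C-fed mice (15.6%). Omd encodes osteomodulin, a leucine-rich proteoglycan, and averaged 5.23 ± 0.31 in INT-fed mice, 4.33 ± 0.44 in CR-fed mice, 5.36 ± 0.22 in MF-fed mice and 5.66 ± 0.35 in C-fed mice. It was at -1.32 between CR and C (adjusted p = 3.74e-06) and 0.90 between INT and CR (adjusted p = 0.000543). Postn, the gene of the matricellular protein periostin, went the other way and averaged 7.50 ± 0.37 in INT-fed mice, 8.47 ± 0.31 in CR-fed mice, 7.44 ± 0.42 in MF-fed mice and 7.41 ± 0.58 in C-fed mice. It was at 1.06 between CR and C (adjusted p = 0.00124) and -0.97 between INT and CR (adjusted p = 0.00338). The laminin chain genes Lamb3 and Lama3 were lower in CR- than in C-fed mice at -0.60 and -0.58 (adjusted p = 0.00939 and 0.0148), and higher between INT and CR at 0.64 and 1.05 (adjusted p = 0.00617 and 4.57e-05). The 4 genes Omd, Postn, Lamb3 and Lama3 kept these calls without any single mouse.

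Of other matrix proteases and inhibitors (26 tested), 5 were higher and 1 lower in CR- than in C-fed mice (23.1%), led by the secreted metalloproteinase gene Adamts7 at 0.73 (adjusted p = 0.000662) and by Adamtsl2, which encodes an ADAMTS-like matrix protein without protease activity, at -0.60 (adjusted p = 0.00575). The cathepsin gene Ctsl was at 0.27 (adjusted p = 0.00503), and Ctsk at 0.54 lost its call without C replicate 4 or CR replicate 2, 4 or 6. Genes of platelet-derived growth factors and matrix receptors (22 tested) held 4 higher and 1 lower (22.7%): Met, the receptor of hepatocyte growth factor, was lower in CR- than in C-fed mice at -0.40 (adjusted p = 0.000377), as Hgf was, and higher between INT and CR at 0.40 (adjusted p = 0.000467). The growth factor gene Pdgfc, at 0.44, lost its call without C replicate 2 or 3 or CR replicate 4 or 6. The integrin genes Itga3 and Itga5 were both higher in CR- than in C-fed mice at 0.36 (adjusted p = 0.0147 and 0.000875). Of 29 other collagens 2 were higher (6.9%), of which Col20a1 at 0.32 (adjusted p = 0.00219) held without any single mouse and Col8a1 (0.37) did not without any 1 of 8 mice. Of 16 genes of collagen synthesis and processing 2 were higher (12.5%), and Fkbp14, a collagen chaperone, at 0.29 (adjusted p = 0.0176) lost its call without CR replicate 4, and the prolyl hydroxylase gene P4ha2 (0.35) without any 1 of 8 mice.

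On Col1a1 within diets, 6 of 32 other matrix glycoproteins had a called slope (18.8%), 3 of 26 proteases and inhibitors (11.5%), 2 of 22 genes of platelet-derived growth factors and matrix receptors (9.09%), 1 of 22 genes of transforming growth factor beta signalling (4.55%), 1 of 16 of collagen synthesis and processing (6.25%) and 0 of 29 other collagens (0.0%), beside 6.09% of all genes. All of these slopes were positive. The macrophage elastase gene Mmp12 gained 3.58 log2 units per log2 unit of Col1a1 (adjusted p = 0.00016) and the collagenase gene Mmp13 1.74 (adjusted p = 0.000668). The basement membrane gene Nid1 (1.01), the matricellular gene Tnc (0.96), Matn2 (0.76) and the procollagen C-proteinase enhancer gene Pcolce (0.76) also had positive slopes (adjusted p = 0.000652, 0.000731, 0.000374 and 0.00255). These 6 calls held without any single mouse, but none held without MF replicates 3 and 4, when Mmp12 was at 3.39 and Matn2 at 0.76 (adjusted p = 0.0618 each), Mmp13 at 1.24 and Pcolce at 0.71 (0.221 each), and Nid1 at 0.73 and Tnc at 0.66 (0.251 each). Mmp13 exceeded an intensity of 20 on 3 MF and 2 C arrays only and was thus near background in all INT- and CR-fed mice.

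Markers of the cells that make or border the matrix were read in the same fits. Of 12 tested stellate cell markers, 0 were higher and 1 lower in CR- than in C-fed mice (8.33% against 17.5% of all genes), and the summed level of the 13 measured markers lay between 11.93 and 12.26 in INT-fed mice, 11.69 and 11.99 in CR-fed mice, 11.92 and 12.75 in MF-fed mice and 11.99 and 12.45 in C-fed mice. Such a sum follows its most abundant genes. The mean log2 value of these 13 markers was 7.35 to 7.55 in INT-fed mice, 7.24 to 7.44 in CR-fed mice, 7.36 to 7.54 in MF-fed mice and 7.25 to 7.48 in C-fed mice. The marker called was Steap4, a metalloreductase gene that hepatocytes also express, at -0.87 (adjusted p = 0.00802). Of 15 macrophage markers, 2 were higher in CR than in C (13.3% against 17.5%), 3 higher in CR than in MF (beside 19.8% of all genes), and 7 lower in INT than in CR (46.7% against 15.0% of all genes), with a median of -0.44 between INT and CR against 0.00 over all genes. Their summed level was 12.16 to 12.7 in INT-fed mice, 12.71 to 13.3 in CR-fed mice, 12.28 to 13.08 in MF-fed mice and 12.54 to 13.27 in C-fed mice. The Kupffer cell gene Clec4f was at -0.44 (adjusted p = 0.00182), Csf1r at -0.51 (adjusted p = 0.0039) and Adgre1 at -0.62 (adjusted p = 0.00494) between INT and CR. Of 14 endothelial markers, 2 were higher in CR than in C (14.3%), 2 higher and 1 lower in CR than in MF (21.4%), and 2 lower in INT than in CR (14.3%). Oit3 was at 0.25 between CR and C, 0.24 between CR and MF and -0.28 between INT and CR, Kdr at 0.24 between CR and C and 0.28 between CR and MF, Lyve1 at -0.77 between CR and MF and Cdh5 at -0.22 between INT and CR. Their summed level was 12.68 to 12.84 in INT-fed mice, 12.76 to 12.92 in CR-fed mice, 12.65 to 12.93 in MF-fed mice and 12.68 to 12.84 in C-fed mice. Of 5 cholangiocyte markers, 2 were higher in CR than in C (40.0%), 1 higher in CR than in MF and 1 lower in INT than in CR. The keratin gene Krt7 was at 0.44 between CR and C (adjusted p = 0.00126), 0.38 between CR and MF (adjusted p = 0.00376) and -0.35 between INT and CR (adjusted p = 0.0102). The summed level of the 7 measured cholangiocyte markers was 7.75 to 8.15 in INT-fed mice, 7.95 to 8.28 in CR-fed mice, 7.69 to 8.18 in MF-fed mice and 7.71 to 8.00 in C-fed mice. The part of macrophages, endothelium and cholangiocytes in the differences of Ctgf and Lamc1 was not tested.

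Macrophage markers also moved with Col1a1 within diets: 5 of 15 had a positive slope and 0 a negative one (33.3% against 6.09% of all genes), with Gpnmb at 3.22 (adjusted p = 0.00016) and Trem2 at 1.13 (adjusted p = 0.00318) called without any single mouse. Ms4a7 (1.09) and Cd68 (1.11) lost the call without MF replicate 4 or C replicate 5, and C1qa (0.54) without any 1 of 14 mice. Gpnmb and Trem2 both mark the lipid-associated macrophages of fatty liver. Gpnmb was 3.41 to 3.95 in INT-fed mice, 3.58 to 4.12 in CR-fed mice, 3.38 to 7.11 in MF-fed mice and 3.56 to 7.29 in C-fed mice. It exceeded an intensity of 20 on 5 MF and 3 C arrays and on no INT or CR array, so that its slope is set against values near background. Of 12 stellate cell markers 1 had a positive slope (8.33%), Cygb at 0.54 (adjusted p = 0.0345), which was lost without MF replicate 1, 3 or 4. Of 9 markers of portal fibroblasts and smooth muscle 2 had one (22.2%), Myl9 at 0.73 and Entpd2 at 0.58, the first lost without C replicate 4 or 5 or MF replicate 1, 4 or 6 and the other without MF replicate 1, 3 or 4 or C replicate 5. Of 5 cholangiocyte markers Muc1 had one (0.51), lost without MF replicate 3, 4 or 6. Of 14 endothelial markers (14.3%), Lyve1 had a positive slope of 1.26, lost without MF replicate 3, 4 or 6 or C replicate 5, and Kdr a negative one of -0.33, lost without any 1 of 18 mice. Without MF replicates 3 and 4, 0 of the 24 genes of these pathway and marker lists with a called slope on Col1a1 were called, Gpnmb at 2.89 (adjusted p = 0.0618) and Trem2 at 0.86 (adjusted p = 0.321) included. On Cidec, 30 genes of these lists had a called slope (beside 11.6% of all genes). Without these 2 mice 8 of the 30 kept it (beside 3.85% of all genes). Gpnmb was among them (0.49, adjusted p = 0.00522) and Trem2 was not (0.14, adjusted p = 0.0856). The part of macrophages and of the other marked cells in the slopes of the matrix genes was not tested.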

How the data were processed

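RNA from 27 livers (100 ng each, RIN above 8.0) was hybridized to 1 array per mouse. The deposited log2 intensities were made by the authors with robust multiarray average over all arrays, version not stated, and were not centred per gene. Of 35556 probe sets 21218 named 1 gene, 1881 several and 12457 none. Their row names were those of the array maker, although the methods describe probe sets regrouped by Entrez gene. Each gene was given its probe set of highest mean. Col5a1 and Loxl2 had 2 probe sets, and the second gave no call between diets and was not fitted in the slopes. Between CR and MF the second probe set of Loxl2 was at 0.10, against -0.19 for the first, neither called. With the mean over all probe sets, Loxl2 lost its call in the slope on Col1a1.

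Diets were compared with limma 3.58.1 (R 4.3.3) in 1 model of all 4 diets, with Benjamini-Hochberg adjustment over 13603 genes. Slopes on Col1a1 and Cidec used the same model with that gene as a covariate (13602 genes). The scripts were tested on simulated data. Tables and figures were made with Python 3.11.15, numpy 2.4.6, pandas 2.3.3, scipy 1.17.1 and matplotlib 3.10.9. Groups came from the sample labels, in which each mouse is a separate animal. The number of arrays limits the precision.

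Members, gene lists and tests were chosen with earlier results of these data known. Values per diet were given for each member called in any comparison, for Col1a1, Col1a2, Col3a1, Timp1, Acta2, Des, Pdgfrb and Tgfb1, and for the 4 members of smallest p in each slope. Of the other lists only some of the called genes were named, and these were not always the ones of largest change. Calls between diets in the lists of portal fibroblasts and smooth muscle, lymphocytes and hepatocytes were left out. Alternatives changed the intensity minimum, normalization, variance model, array weights, samples in the fit, blocks, probe sets and test, and left out each mouse.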

Additional observations from a re-analysis of the deposited data

Results flagged for a closer look

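In 12 of 156 groups of mice (each member in each diet), 1 mouse lay far from the others of its diet by Dixon's criterion, which chance alone would single out in about 1 in 20 groups, or 8 here. MF replicate 4 was the highest MF-fed mouse in Lama2 (5.61, next 5.18), Col6a3 (6.41, next 5.88), Fn1 (12.78, next 12.65) and Thbs2 (6.12, next 5.76). INT replicate 7 was the highest INT-fed mouse in Col6a3 (6.17, next 5.6), and CR replicate 4 the highest CR-fed mouse in Dcn (11.98, next 11.79). On the low side were INT replicate 4 in Col5a1 (5.51, next 5.71), INT replicate 6 in Lamc1 (6.56, next 6.76) and INT replicate 1 in Timp2 (7.39, next 7.74). CR replicate 3 was low in Col3a1 (5.71, next 5.89), MF replicate 1 in Loxl1 (4.93, next 5.31) and C replicate 4 in Col6a3 (5.29, next 5.6). Of these genes, Lamc1 and Thbs2 were called between diets, and the call of Thbs2 between CR and MF was lost without MF replicate 4.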

How the results depend on the processing

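Counts of members called kept within 1.5 times their value in 319 cases and moved further in 21. The cases kept include those between MF and C, INT and C, and INT and MF, where the count was 0 under every setting. The number kept therefore says less about the comparisons with CR and the slopes. Within replicates 5 to 7, with 11 mice, all counts were 0. Within replicates 1 to 4 they were 1 between CR and C, 2 between INT and CR, 1 for the slope on Col1a1 and 1 for that on Cidec. Between CR and MF the count there was 6 in place of 4, with Col1a1, Col14a1 and Loxl2 gained and Thbs2 lost. The methods' test with Tukey post-test called 1 member between CR and C (Ctgf), 2 between CR and MF (Ctgf and Hgf) and 2 between INT and CR (Ctgf and Hgf). All calls of Mmp2, Lamc1 and Thbs2 were lost under it. Here its p-values were also adjusted over all genes tested by the Benjamini-Hochberg method, which the study's methods do not name. Array weights gave 4 members for the slope on Col1a1 and 5 for Cidec. Without the 2 farthest arrays (MF replicates 3 and 4) the slopes held 2 and 1. Without these mice, an alternative chosen after seeing the data, 2 members were called between CR and MF. Leaving out 1 mouse at a time gave 2 to 5 between CR and C (2 without CR replicate 4), 3 to 8 between CR and MF (8 without MF replicate 1), 3 to 4 between INT and CR, 6 to 16 for the slope on Col1a1 (6 without MF replicate 4) and 3 to 12 for that on Cidec (3 without MF replicate 6, 5 without MF replicate 4). The causes were not tested.

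After removal of diet means, mice of different diets with the same replicate number had a median correlation of 0.0811, against -0.0131 for other pairs. Of the same-numbered pairs 17 of 39 were over 0.1, and 12 of 27 arrays were closest to their own number. For the number in the mouse identifier the medians were 0.00779 and -0.003, with 11 of 39 pairs over 0.1. The labels do not say what the replicate number stands for, and it was not part of the main fit. With the replicate block 4 members were called between CR and C, 4 between CR and MF, 3 between INT and CR, 11 for the slope on Col1a1 and 5 for that on Cidec. With the number in the mouse identifier as the block, CR and MF gave 6 and the slopes 13 and 7.

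Of single-gene results 1903 kept their direction and side of the threshold, 214 lost and 2 gained a call, and 13 changed sign, none of them called. Between CR and MF, the estimate turned to 0.048 (Timp1), 0.012 (Des), 0.10 (Pdgfrb) and 0.16 (Tgfb1) within replicates 5 to 7, and to 0.0044 (Acta2) within replicates 1 to 4. Leaving out 1 mouse at a time, it ran from -0.17 to 0.0022 in Timp1 and from -0.11 to 0.037 in Acta2. Without MF replicate 4 it was 0.0022 (Timp1) and 0.026 (Acta2), without MF replicate 7 0.037 (Acta2), and without MF replicates 3 and 4 0.12 (Timp1), 0.022 (Acta2) and 0.0036 (Tgfb1). Between INT and MF it was 0.0026 (Pdgfrb) and 0.0075 (Tgfb1) within replicates 5 to 7. Timp1, Mmp9 and Col5a2 were near the background of the array, which limits what their differences show.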
